A study of Danio rerio with 6 samples.

Results

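The claudins and the other genes of the tight junction were examined in zebrafish larvae exposed to Lurasidone. The genes were chosen by symbol: every gene whose name begins with cldn, tjp and a digit, ocln, marveld, jam2, jam3, f11r or cgn was taken, which gave 54 of the 39214 genes in the deposited table. RNA-seq libraries from 3 control and 3 Lurasidone-treated samples of AB wild-type larvae at 5 dpf were compared. The treated larvae had received 4 mg/L Lurasidone, an antipsychotic drug, from 3 hpf according to the sample labels and from 5 hpf according to the methods of the study, and the solvent control was DMSO. The labels give larvae as the tissue, whereas the methods of the study speak both of entire larvae and of brain tissue. Markers of liver, muscle, intestine and skin were all measured in the 6 libraries, among them the liver gene fabp10a at 114 ± 25.4 FPKM in the control group (SD, n = 3).

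Claudins are membrane proteins that join neighbouring cells into the tight junction, and the claudins that a tissue uses set whether the junction is a seal or a pore for particular ions. Occludin and some other MARVEL proteins, such as tricellulin, lie beside them in the junction strand. The JAM proteins are immunoglobulin adhesion molecules, and the ZO and cingulin proteins tie the strand to actin inside the cell. Zebrafish have more claudin genes than mammals, many of them in tandem clusters. Several are known for a particular tissue, such as cldnk in myelinating glia, cldn5 in blood vessels of the brain, cldn15la in the gut and cldnj in the ear.

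Levels are given as FPKM, the fragments of a gene per kilobase of its length scaled to the size of the library, so that levels can be compared between genes. Depth ran from 11749887 to 15107664 fragments on genes. The summed level of the cldn genes other than cldnd1a and cldnd1b was 480, 520 and 380 FPKM in control replicates 1, 2 and 3, and 412, 426 and 391 FPKM in Lurasidone replicates 1, 2 and 3. These ranges overlapped, because control replicate 3 lay below all the treated libraries. Control replicate 3 was also the lowest library in summed FPKM over all genes. Those totals were 462442, 485158 and 383149 in control replicates 1, 2 and 3, and 418114, 400668 and 391797 in Lurasidone replicates 1, 2 and 3. Summed levels here and below were not scaled for these totals. Of the 54 genes, 2 were listed at 0 in every library, 8 had a mean of up to 1 FPKM, 25 lay between 1 and 10 FPKM, 16 lay between 10 and 40 FPKM and 3 were above 40 FPKM. The 3 most abundant over all 6 libraries were cldn15la at a mean of 70.1 FPKM, cldnb at 69.5 FPKM and cldn1 at 68.2 FPKM, and together they made up between 42.1% and 56.7% of the summed claudin level. After them came cldne at 37.5, cldnh at 24.7, tjp1a at 24.5, cldn19 at 22.5, cldn11a at 20.5, tjp2b at 20.4 and oclna at 19.7 FPKM. Apart from the steps from cldn1 to cldne and from cldne to cldnh, neighbours in this order differed by less than their spread over the 6 libraries. In every library cldn1 was above cldne, although cldn1 itself ranged from 41.4 to 122 FPKM. In bulk tissue of this kind, fewer cells of a type and less RNA per cell cannot be told apart.

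**Figure D1:**
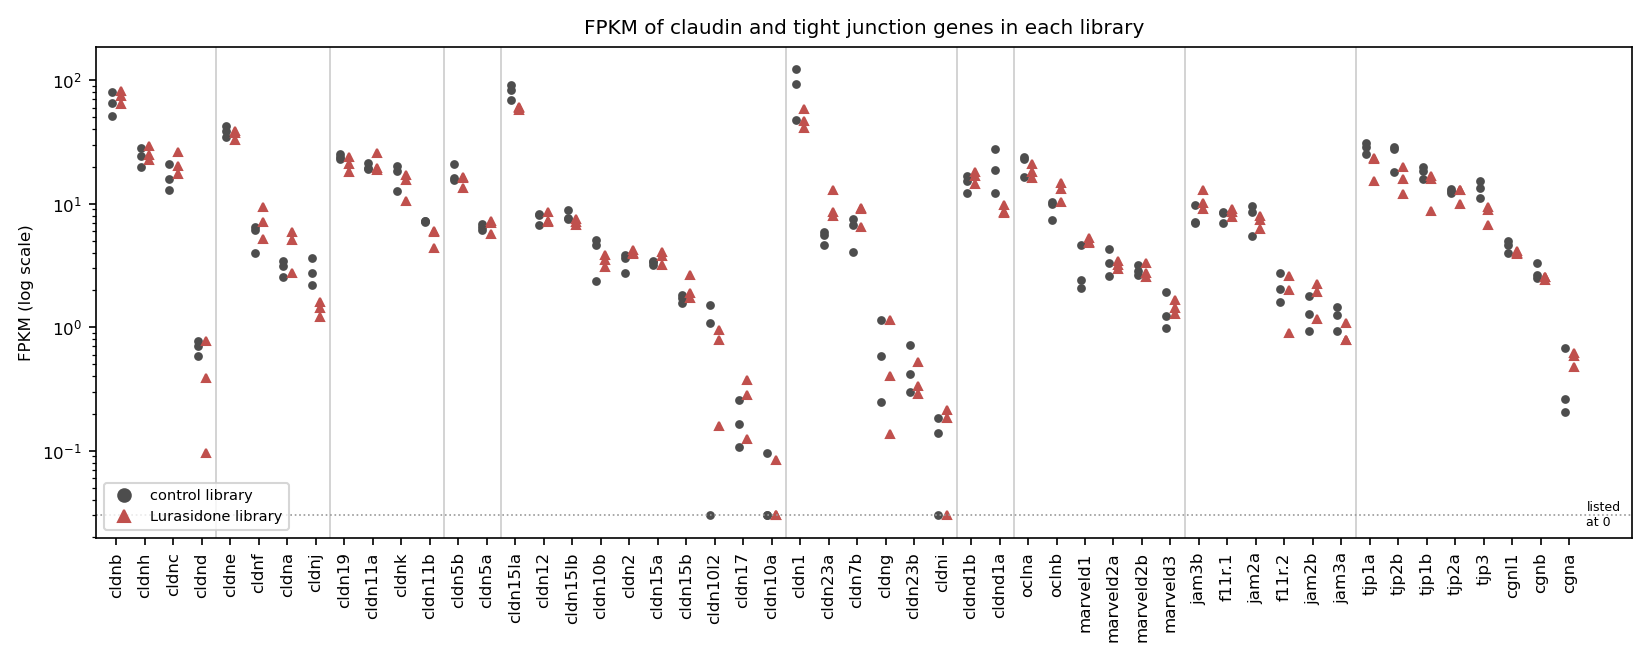
The FPKM of each claudin and tight junction gene in each library is plotted on a log axis, with control and Lurasidone libraries in different colours, genes grouped by role, values of 0 on a dotted line, and cldn7a and cldn18 (0 in all libraries) left out. The highest means are those of cldn15la, cldnb and cldn1, and in most genes the points of both groups lie among each other.

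Of the 54 genes, 48 reached 0.5 FPKM in at least 3 libraries and were tested. Between the groups, 1 gene was higher (cldn23a) and 1 was lower (cldnd1a) in the Lurasidone-treated larvae at an adjusted p of at most 0.05 (limma on log2(FPKM + 1), Benjamini-Hochberg adjustment over 23409 tested genes). That is 4.17% of the 48, beside 9.7% of all tested genes. By direction the background was 5.79% higher and 3.9% lower. No gene of the family was a DEG, a status that needs a log2 fold change of 1 or more in either direction as well, beside 3.83% of all tested genes (2.61% higher and 1.22% lower). Without adjustment, 10 genes had a p up to 0.05 (3 higher and 7 lower), or 20.8% of the 48 beside 28.2% of all genes, and none of them had a log2 fold change of 1 or more in size. With limma voom on the fragments behind the FPKM, 3 genes were called (tjp3 was the addition) and 1, cldnd1a, was a DEG with a log2 fold change of -1.05, beside 12.9% of all tested genes called and 6.95% DEGs in that fit. The 3 values of a group lay wholly above or below the 3 of the other in 11 genes (4 higher, 7 lower), which is 22.9% beside 33.3% of all tested genes. The median log2 fold change of the 48 genes was -0.09, beside -0.02 for all tested genes, and 41 of the 48 (85.4%) differed by less than 0.5, beside 75.1% of all tested genes.

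**Figure D2:**
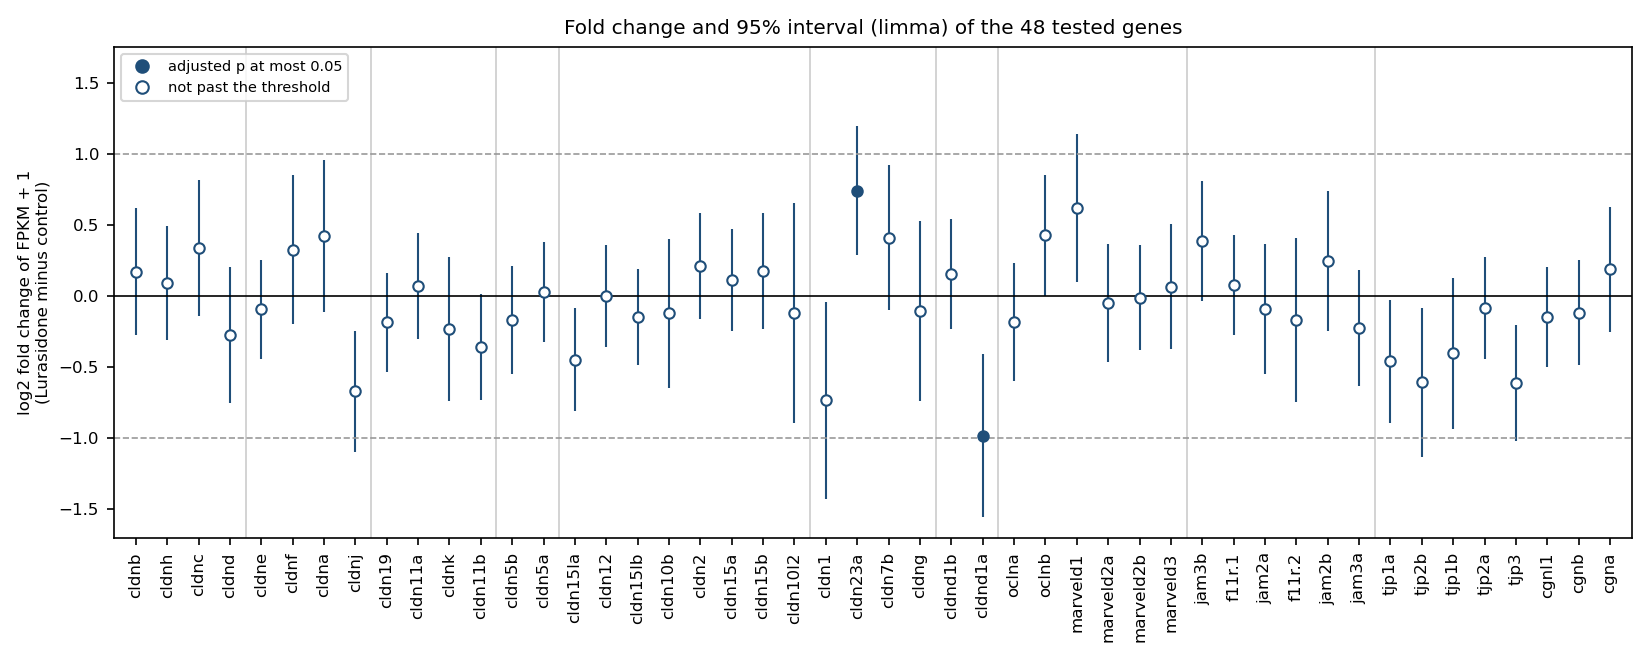
The log2 fold change (Lurasidone over control, on the log2(FPKM + 1) scale) of the 48 tested genes is plotted with its 95% interval from limma, grouped by role. Of the called genes, cldn23a lies at 0.74 and cldnd1a at -0.98, and most of the other intervals span 0.

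cldnd1a encodes a claudin-domain protein, a relative of the claudins whose work is less well known, and it lies at chr7:74134010-74137586 (GRCz11). Its level was 18.8, 28.0 and 12.2 FPKM in control replicates 1, 2 and 3, and 9.85, 8.44 and 8.59 FPKM in Lurasidone replicates 1, 2 and 3. All 3 treated libraries lay below all 3 controls, and the controls were far more spread (19.7 ± 7.92 FPKM) than the treated libraries (8.96 ± 0.774 FPKM, SD, n = 3 each). The gene fell by 0.98 on the log2 scale (SE 0.26, 95% interval -1.56 to -0.41, limma adjusted p = 0.042). Its paralogue cldnd1b on chromosome 1 was at 14.7 ± 2.31 FPKM in the control group and 16.4 ± 1.96 FPKM in the Lurasidone group, a log2 fold change of 0.15 (adjusted p = 0.59). The call for cldnd1a was lost when any library other than control replicate 3 was left out (adjusted p between 0.070 and 0.131), and without control replicate 3 its log2 fold change was -1.27 (adjusted p = 0.011).

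cldn23a, a member of the claudin 23 group that in mammals is found in the gut lining, lies at chr10:15046837-15048781. It was at 5.55, 4.60 and 5.95 FPKM in the control libraries and at 7.93, 13.0 and 8.50 FPKM in the Lurasidone libraries. Every treated library was above every control, and Lurasidone replicate 2 was well above the other two. The gene rose by 0.74 on the log2 scale (SE 0.20, 95% interval 0.29 to 1.19, limma adjusted p = 0.049). Its neighbour cldn23b, which begins 1687 bases further along the chromosome and is named here after its values were seen, stayed under the limit for testing, with 0.479 ± 0.220 FPKM in the control group and 0.381 ± 0.124 FPKM in the Lurasidone group. The call for cldn23a was lost whichever library was left out (adjusted p between 0.056 and 0.136), and without Lurasidone replicate 2 its log2 fold change was 0.54.

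**Figure D3:**
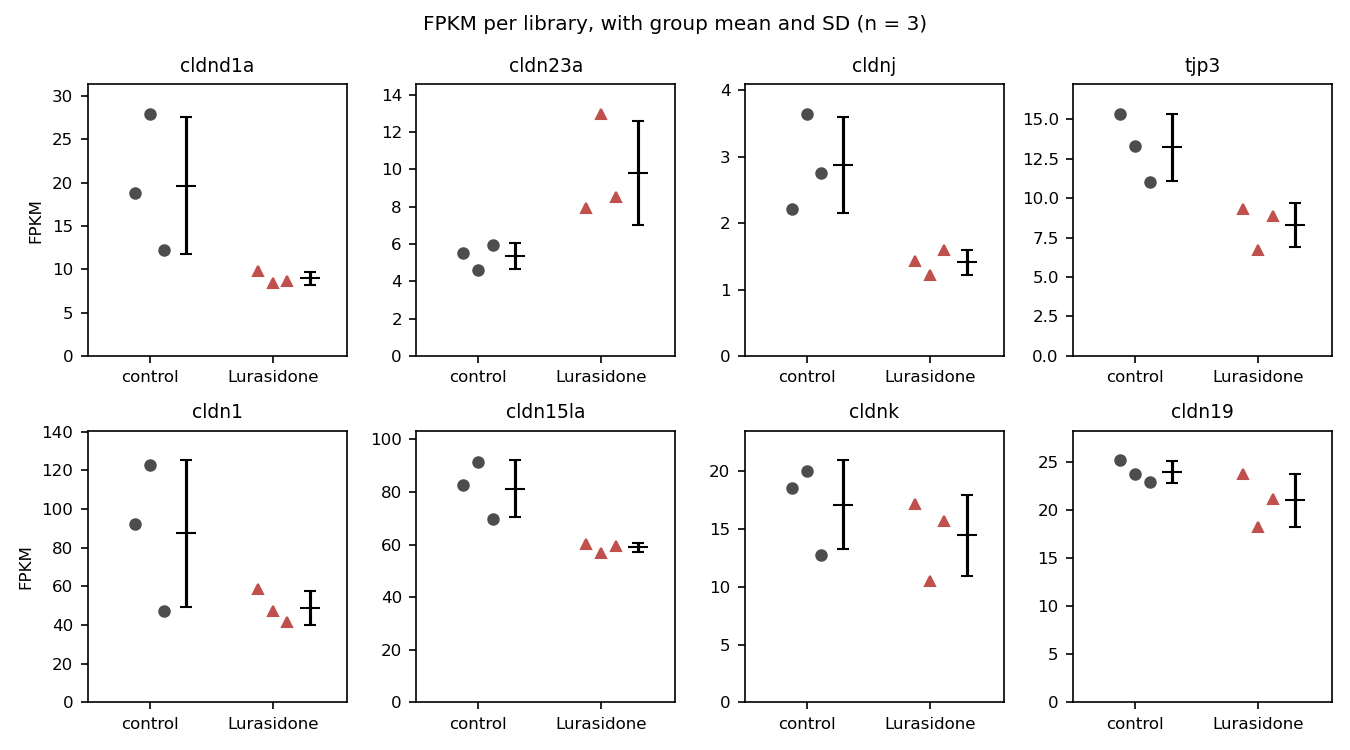
The FPKM of 8 genes is plotted by library for the control and the Lurasidone group, each panel with its own axis from 0, and the group mean with its SD (n = 3) beside the points. The treated libraries of cldnd1a, cldnj, tjp3 and cldn15la lie below all controls and those of cldn23a above them, while for cldn1, cldnk and cldn19 the groups overlap.

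The claudin of myelinating glia, cldnk, did not pass the test. Its level was 18.5, 20.0 and 12.7 FPKM in the control libraries and 17.2, 10.5 and 15.7 FPKM in the Lurasidone libraries. Control replicate 3 and Lurasidone replicate 2 were the low libraries of their groups, and the groups overlapped (17.1 ± 3.84 and 14.4 ± 3.52 FPKM). The log2 fold change was -0.23 with a 95% interval from -0.74 to 0.28 (adjusted p = 0.53), which leaves room for a moderate difference in either direction. cldn19, which in mammals serves Schwann cells and the kidney, was at 23.9 ± 1.16 FPKM in the control group and 20.996 ± 2.76 FPKM in the Lurasidone group (log2 fold change -0.19, adjusted p = 0.46). The 2 zebrafish genes of claudin 11, the oligodendrocyte claudin of mammals, had log2 fold changes of 0.07 for cldn11a (19.9 ± 1.15 and 21.2 ± 3.78 FPKM) and -0.36 for cldn11b (adjusted p = 0.19). cldn11b, named after its values were seen, was at 7.22, 7.13 and 7.19 FPKM in the controls and 5.95, 5.98 and 4.35 FPKM in the treated libraries, which did not overlap.

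The other myelin genes are given beside cldnk. Of 16 oligodendrocyte and myelin markers, 15 were tested, and 2 rose and 0 fell, with a median log2 fold change of 0.00. That is 13.3% of the 15, beside 9.7% of all tested genes. The genes that rose were tspan2a, a tetraspanin of oligodendrocytes, from 1.47 ± 0.361 to 5.14 ± 0.422 FPKM (log2 fold change 1.32, limma adjusted p = 0.0029), and pmp22b, a peripheral myelin protein that many other tissues also make, from 26.2 ± 3.62 to 45.7 ± 5.78 FPKM (0.78, adjusted p = 0.021). The call for pmp22b was lost without control replicates 1 or 2 or Lurasidone replicates 2 or 3 (largest adjusted p 0.101). Myelin basic protein was at 31.7 ± 2.93 and 31.9 ± 4.75 FPKM for mbpa and at 42.9 ± 1.99 and 39.5 ± 2.81 FPKM for mbpb, control first. In the list 8 log2 fold changes lay above and 7 below 0. An unadjusted p of at most 0.05 was reached by 3 genes (2 higher and 1 lower), or 20% beside 28.2% of all tested genes. The lower one was olig2, named after its values were seen, at 9.94 ± 1.54 and 6.44 ± 1.37 FPKM without overlap (-0.56, limma adjusted p = 0.087). The summed level of the list ranged from 191 to 202 FPKM in the controls and from 195 to 217 FPKM in the treated libraries.

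Neither endothelial claudin was called. cldn5a, linked to the barriers of the brain in zebrafish, was at 6.43, 6.79 and 6.15 FPKM in the controls and 5.67, 7.23 and 6.93 FPKM in the treated libraries. The groups overlapped, and the log2 fold change was 0.03 with a 95% interval from -0.33 to 0.38 (adjusted p = 0.94). cldn5b had 17.5 ± 2.91 FPKM in the control group and 15.3 ± 1.73 FPKM in the Lurasidone group (log2 fold change -0.17, interval -0.55 to 0.21, adjusted p = 0.55). Of 9 endothelial and blood-brain barrier markers tested, 1 rose and 0 fell, or 11.1% beside 9.7% of all tested genes. The median log2 fold change was -0.28, with 2 above and 7 below 0. Their summed level was 41.0 to 43.1 FPKM in the controls and 34.4 to 38.1 FPKM in the treated libraries, not scaled for the total of each library. The gene that rose was plvapa, which forms the diaphragms of leaky vessels, from 1.54 ± 0.592 to 4.41 ± 0.927 FPKM (1.10, adjusted p = 0.016). Its call was lost without control replicate 1 or Lurasidone replicate 2 (largest adjusted p 0.072). The paralogue plvapb, named after its values were seen, went the other way without a call. It was at 3.89 ± 1.48 FPKM in the control group and 2.37 ± 0.680 FPKM in the Lurasidone group (-0.51, limma adjusted p = 0.21).

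A claudin of the skin, cldn1, which in mammals makes the water barrier of the epidermis, was at 92.4, 122 and 47.3 FPKM in the controls and 58.4, 47.0 and 41.4 FPKM in the treated libraries. Control replicate 3 lay within the treated range, and the difference was not called (log2 fold change -0.74, 95% interval -1.43 to -0.04, adjusted p = 0.156). Without control replicate 3 it was -1.12 with an adjusted p of 0.016. With any other library left out, the adjusted p of cldn1 lay between 0.160 and 0.373. Leaving out control replicate 3 also raised the lower calls over all tested genes from 914 to 1369. Among 9 epidermal markers 7 were tested and none was called, beside 9.7% of all tested genes. An unadjusted p of at most 0.05 was reached by 2, or 28.6% beside 28.2% of all tested genes. They went in opposite directions, krt91 by 0.63 and krtt1c19e by -0.67 (883 ± 190 and 548 ± 63.7 FPKM), both named after their values were seen. The median log2 fold change was 0.27, with 4 above and 3 below 0. The summed level ran from 1370 to 2076 FPKM in the controls and from 1405 to 1893 FPKM in the treated libraries. In that list control replicate 3 was again the lowest control, as it was in summed FPKM over all genes. Of the markers, epcam was listed at 0 in all libraries and krt5 was under the limit for testing. The part of skin RNA in the cldn1 values was not tested.

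The cluster on chromosome 21 (chr21:25739295-25778201) holds cldnh, cldnc, cldnb and cldnd within 38.9 kb. cldnb, the claudin whose promoter is used to mark the lateral line and skin in zebrafish, was at 65.7, 80.7 and 50.9 FPKM in the controls and at 74.6, 81.1 and 64.0 FPKM in the treated libraries. The groups overlapped, with a log2 fold change of 0.17 (interval -0.27 to 0.61, adjusted p = 0.61). cldnh was at 24.0 ± 4.20 and 25.5 ± 3.32 FPKM (0.09, adjusted p = 0.78). cldnc and cldnd, named after their values were seen, had log2 fold changes of 0.34 (adjusted p = 0.33) and -0.28 (adjusted p = 0.43), and cldnd rested on between 1 and 8 fragments a library. None of the 4 genes was called, beside 9.7% of all tested genes. Their order of level was cldnb, cldnh, cldnc, cldnd in the mean over libraries.

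The cluster on chromosome 15 (chr15:2631421-2657508) holds cldnj, cldne, cldnf and cldna within 26.1 kb. cldnj, which in zebrafish is needed to form normal ear stones, was at 2.21, 3.65 and 2.76 FPKM in the controls and at 1.42, 1.22 and 1.59 FPKM in the treated libraries. All treated libraries lay below all controls, on 50 to 63 fragments a control library and 24 to 31 a treated library. The log2 fold change was -0.67 (interval -1.10 to -0.24) and the adjusted p was 0.055, so that cldnj missed the threshold narrowly. It passed with quantile normalization or with protein-coding genes alone, and in no other fit. The limma adjusted p of cldnj was 0.109 with no filter, 0.095 with the replicate block and 0.093 with voom on fragments. Whichever library was left out, it lay between 0.082 and 0.153. The 6 tested markers of the inner ear gave no call, beside 9.7% of all tested genes, and their median log2 fold change was -0.16. An unadjusted p of at most 0.05 was reached by 2, both lower, or 33.3% beside 28.2% of all tested genes. The summed level of the list overlapped between the groups. The neighbours of cldnj were not called: cldne was at 38.7 ± 3.64 and 36.2 ± 3.21 FPKM (-0.09, adjusted p = 0.72) and cldnf at 5.53 ± 1.33 and 7.24 ± 2.104 FPKM (0.33, adjusted p = 0.39). cldna, named after its values were seen, was at 3.05 ± 0.463 and 4.58 ± 1.66 FPKM (0.42, adjusted p = 0.28).

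Claudins of the gut and kidney and those that form pores were represented by 11 genes, of which 8 were tested. None of the 8 was called, beside 9.7% of all tested genes. cldn15la, a marker of the zebrafish intestine with the highest mean over all 6 libraries (though below cldn1 in the control group and below cldnb in the Lurasidone group), was at 82.8, 91.3 and 69.7 FPKM in the controls and at 60.3, 57.0 and 59.5 FPKM in the treated libraries. All treated libraries lay below all controls, and they were tighter (59.0 ± 1.74 FPKM) than the controls (81.2 ± 10.9 FPKM). The log2 fold change was -0.45 (interval -0.81 to -0.09, adjusted p = 0.107, and 0.049 without control replicate 3). When any other library was left out, the adjusted p lay between 0.196 and 0.268. cldn15a, which in zebrafish helps to open a single gut lumen, was at 3.32 ± 0.128 and 3.69 ± 0.469 FPKM (0.11, adjusted p = 0.68). The remaining genes are named after their values were seen. Among the pore-forming claudins, cldn2 was at 3.61, 3.82 and 2.76 FPKM in the controls and 3.92, 4.02 and 4.23 FPKM in the treated libraries, which did not overlap (0.21, adjusted p = 0.44), and cldn10b had a log2 fold change of -0.12 (adjusted p = 0.76). cldn12 was nearly level, at 7.70 ± 0.885 and 7.68 ± 0.824 FPKM (interval -0.36 to 0.36). The other tested genes of this group had log2 fold changes of 0.17 for cldn15b, -0.15 for cldn15lb and -0.12 for cldn10l2, and none was called. Of these, cldn10l2 rested on between 0 and 11 fragments a library. Its log2 fold change was 0.12 with a pseudocount of 0.1 and 0.25 with voom on fragments. Outside it, cldn7b, an epithelial claudin, was at 6.08 ± 1.81 and 8.27 ± 1.53 FPKM (0.41, adjusted p = 0.27), and cldng rested on between 2 and 17 fragments a library (-0.11, adjusted p = 0.84).

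Intestinal, kidney and ionocyte markers are given beside these claudins, and they were called in both directions. Of 6 intestinal markers tested, 2 rose and 0 fell, with 3 log2 fold changes above and 3 below 0 and a median of 0.06. Those that rose were the peptide transporter slc15a1b from 21.5 ± 0.526 to 50.5 ± 4.22 FPKM (log2 fold change 1.19, limma adjusted p = 0.0021) and the bile acid-binding protein fabp6 from 112 ± 11.5 to 189 ± 30.5 FPKM (0.74, adjusted p = 0.037, kept only without control replicate 3 among the fits that left out a library). The fatty acid-binding protein fabp2, with 7.78 ± 1.09 and 4.87 ± 1.29 FPKM, had a log2 fold change of -0.60 that was not called (adjusted p = 0.088). Of 6 kidney tubule markers tested, 0 rose and 1 fell, the salt transporter slc12a3 from 8.97 ± 1.53 to 3.43 ± 1.81 FPKM (-1.26, adjusted p = 0.035, lost without control replicate 1 or 2), and the median was -0.33. In the ionocyte list of 7 tested genes, with a median of -0.01, the ammonium transporter rhcga rose by 2.64 on the log2 scale (adjusted p = 0.00030) and the calcium channel trpv6 fell by 1.70 (adjusted p = 0.0012). The called genes came to 33.3% of the intestinal, 16.7% of the kidney and 28.6% of the ionocyte list, beside 9.7% of all tested genes. For an unadjusted p of at most 0.05 the shares were 66.7%, 16.7% and 57.1%, beside 28.2% of all tested genes. How far cell numbers of gut, kidney or ionocytes moved with the claudin values was not tested.

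The MARVEL genes comprise occludin, tricellulin (marveld2), which sits where cells meet in corners, and marveld1 and marveld3. None of the 6 was called, beside 9.7% of all tested genes. An unadjusted p of 0.05 was reached by 2, both higher, or 33.3% beside 28.2% of all tested genes. marveld1 was at 2.42, 2.07 and 4.66 FPKM in the controls and at 4.89, 5.27 and 4.82 FPKM in the treated libraries. The groups did not overlap, although control replicate 3 lay close to the treated libraries (log2 fold change 0.62, interval 0.10 to 1.14, adjusted p = 0.119, and 0.021 without control replicate 3). Leaving out any other library gave marveld1 an adjusted p between 0.185 and 0.307. oclnb was at 10.01, 7.35 and 10.23 FPKM in the controls and at 10.3, 14.8 and 13.0 FPKM in the treated libraries (0.43, adjusted p = 0.18). Its paralogue oclna had a log2 fold change of -0.18 (21.1 ± 4.14 and 18.3 ± 2.42 FPKM, adjusted p = 0.55). The tricellulin genes marveld2a (-0.05, adjusted p = 0.89) and marveld2b (-0.01, adjusted p = 0.97) and marveld3 (0.06, adjusted p = 0.86) were nearly level. Occludin and tricellulin genes are neighbours in this genome, with 201 bases between oclna and marveld2a on chromosome 10 and 774 bases between marveld2b and oclnb on chromosome 5. Fragments from such a pair could be shared, since the counting rule is not given in the sources used here.

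The JAM genes gave no call among 6, beside 9.7% of all tested genes. None reached an unadjusted p of 0.05, beside 28.2% of all tested genes. jam3b, known in zebrafish for the fusion of muscle cells together with jam2a, was at 7.07, 7.04 and 9.69 FPKM in the controls and at 9.01, 12.8 and 10.1 FPKM in the treated libraries. Control replicate 3 lay within the treated range (log2 fold change 0.38, interval -0.04 to 0.81, adjusted p = 0.21). jam2a was at 7.87 ± 2.09 and 7.18 ± 0.855 FPKM (-0.09, adjusted p = 0.80). The other genes had log2 fold changes of 0.25 for jam2b, -0.22 for jam3a, 0.07 for f11r.1 and -0.17 for f11r.2, the last pair being zebrafish genes of JAM-A that lie 5348 bases apart. Their adjusted p lay between 0.45 for jam3a and 0.79 for f11r.1.

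The ZO scaffold genes all had log2 fold changes below 0, from -0.08 for tjp2a to -0.61 for tjp3. None of the 5 was called, beside 9.7% of all tested genes. Before adjustment, 3 of the 5 (60%), all lower, had a limma p of at most 0.05, beside 28.2% of all tested genes. The groups did not overlap in 2 of them, or 40% beside 33.3% of all tested genes. The sign of tjp2a depended on Lurasidone replicate 2, without which its log2 fold change was 0.04. tjp3 was at 15.3, 13.3 and 11.05 FPKM in the controls and at 9.34, 6.73 and 8.88 FPKM in the treated libraries, with no overlap (-0.61, interval -1.02 to -0.20, adjusted p = 0.064, and 0.034 with voom). The limma adjusted p of tjp3 was 0.046 without control replicate 3, and between 0.086 and 0.222 when any other library was left out. tjp2b was at 27.8, 28.7 and 18.0 FPKM in the controls and at 20.0, 11.9 and 16.0 FPKM in the treated libraries (-0.61, adjusted p = 0.126, and 0.047 without control replicate 3). Its adjusted p lay between 0.094 and 0.321 when any other library was left out. tjp1a, the most abundant ZO gene, was at 31.2, 25.1 and 28.9 FPKM in the controls and at 23.4, 15.3 and 23.2 FPKM in the treated libraries (-0.46, adjusted p = 0.156). In all of these genes the treated group was lower on average, and Lurasidone replicate 2 was its lowest library. tjp1b, a scaffold of electrical synapses in zebrafish, was at 18.0 ± 2.11 and 13.8 ± 4.50 FPKM (-0.40, adjusted p = 0.29), and tjp2a at 12.7 ± 0.518 and 11.96 ± 1.79 FPKM (adjusted p = 0.76).

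Lurasidone replicate 2 was the lowest of all 6 libraries for each of the 5 ZO genes. Its log2(FPKM + 1) differed from the mean of the other treated libraries by between -0.36 for tjp2a and -0.85 for tjp1b. Over all tested genes longer than 8000 bases the median difference of that library from the other treated libraries was -0.14, and over genes of 4001 to 8000 bases it was -0.05, the classes to which the ZO genes belong. Without Lurasidone replicate 2 the log2 fold change of tjp3 was -0.48 and that of tjp2b -0.43. The part of gene length in these values was not tested. The cingulin genes, which link the ZO proteins to myosin, were on both sides of 0: cgna (0.19, adjusted p = 0.56), cgnb (-0.12, adjusted p = 0.67) and cgnl1 (-0.15, adjusted p = 0.57), and cgna stayed under 1 FPKM in every library.

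**Figure D4:**
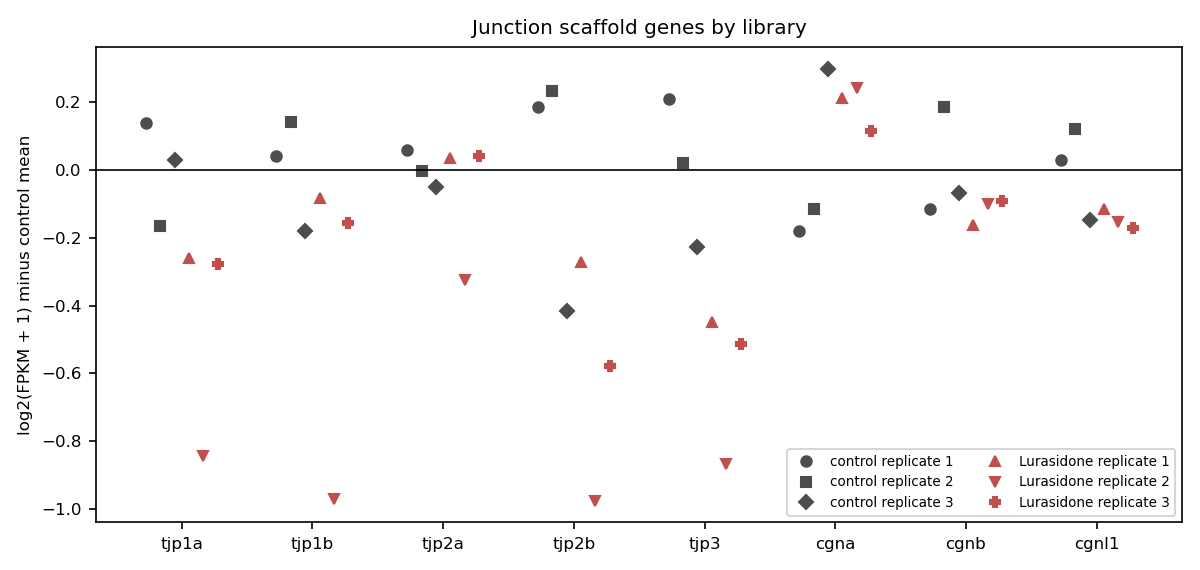
For the 5 ZO genes and the 3 cingulin genes, each library's log2(FPKM + 1) minus the mean of the controls is plotted. Lurasidone replicate 2 is the lowest point for every ZO gene, and the cingulin genes lie on both sides of 0.

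The difference between the members of a gene pair was compared between the groups for 13 pairs of paralogues (two-sided exact permutation test on the log2 ratio of their FPKM + 1, with 3 libraries against 3 and a smallest possible p of 0.1). Because that smallest p lies above the threshold for a call, no pair could pass, and the test cannot decide whether a pair shifted. The smallest adjusted p over the 13 pairs was 0.26. In 5 of the 13 pairs the log2 ratios of the groups did not overlap. The same share over other gene pairs was not computed. Among single genes, the groups did not overlap in 33.3% of all tested genes. The largest shift was that of cldnd1a against cldnd1b, whose log2 ratio went from 0.33 ± 0.73 in the controls to -0.80 ± 0.12 in the treated libraries (exact p = 0.1). For cldn23a against cldn23b it went from 2.11 ± 0.18 to 2.94 ± 0.23, and for cldn11a against cldn11b from 1.35 ± 0.09 to 1.78 ± 0.20 (exact p = 0.1 for both). The remaining pairs without overlap were cldn15la against cldn15lb and jam3a against jam3b (exact p = 0.1 for both). They went from 3.18 ± 0.21 to 2.89 ± 0.05 and from -2.01 ± 0.14 to -2.61 ± 0.29. The occludin pair, oclna against oclnb, went from 1.11 ± 0.48 to 0.50 ± 0.25 (exact p = 0.2). Paralogues can share reads, and how the authors assigned such reads is not given in the sources used here.

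The 6 genes below the limit for testing were cldn17, cldn10a, cldn18, cldn23b, cldni and cldn7a. cldn18 and cldn7a were listed at 0 in all libraries, and cldn10a had at most 1 fragment in any library, under the 3 fragments that a count of 0 allows. cldni had between 0 and 7 fragments a library and cldn17 between 3 and 12. Within the span of cldn17 on chromosome 15 lies zgc_110333, named after its values were seen. It matches Claudin-8 and had between 269 and 565 fragments a library. How fragments were divided between it and cldn17 was not tested. cldn23b had between 11 and 35 fragments a library. With no filter on low values 52 of the 54 genes were tested, and none was called.

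Other junction genes were read from lists. Among 22 adherens junction and nectin genes, 1 rose and 1 fell, with a median log2 fold change of -0.19. E-cadherin (cdh1), the cadherin of epithelia, rose from 14.2 ± 1.24 to 23.1 ± 1.82 FPKM (0.67, limma adjusted p = 0.025), and its libraries were 12.8, 14.5 and 15.2 FPKM in the controls and 21.9, 25.2 and 22.3 FPKM in the treated group. N-cadherin (cdh2), the cadherin of neural and mesodermal cells, fell by 0.97 on the log2 scale, from 52.4, 49.3 and 45.7 FPKM to 25.3, 19.1 and 30.5 FPKM (adjusted p = 0.014). In both genes the groups were far apart relative to their spread. The call for cdh2 was lost without control replicate 1 (adjusted p = 0.070), and that for cdh1 without control replicate 1 or any treated library (largest adjusted p 0.115). Among 30 polarity and junction scaffold genes, 0 rose and 1 fell, with a median of -0.02: ect2, known for its work in cell division, fell from 3.09 ± 0.362 to 1.21 ± 0.195 FPKM (-0.89, adjusted p = 0.014, and 0.071 without control replicate 1). Among 19 tricellular, immunoglobulin and PMP22-related genes, 1 rose (pmp22b) and 1 fell, the lens gene lim2.2, from 1.93 ± 0.464 to 0.461 ± 0.178 FPKM (-0.999, adjusted p = 0.015, lost without control replicate 1 or Lurasidone replicate 3, largest adjusted p 0.076). These counts come to 9.09%, 3.33% and 10.5% of the lists, beside 9.7% of all tested genes. An unadjusted p of at most 0.05 was reached by 40.9%, 20% and 26.3% of the lists, beside 28.2% of all tested genes. In the adherens junction and nectin list these were 9 genes, 2 higher and 7 lower.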

How the data were processed

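The authors sequenced paired-end reads and deposited FPKM for 39214 genes with gene lengths and positions. The build in the submitters' processing notes is GRCz11, and the aligner, counting rule and annotation release are not given in the sources used here. Multiplying FPKM by gene length gave whole fragments for 100% of values in every library (tolerance 0.02). The denominators in the deposited FPKM were not the summed fragments, which came to between 84.5% and 104% of them, with control replicate 3 the lowest. FPKM are not counts, so log2(FPKM + 1) was compared with limma 3.58.1 in R 4.3.3 (variance trend, group as the only term, 6 libraries) for the 23409 genes that reached 0.5 FPKM in 3 or more libraries, with Benjamini-Hochberg adjustment. A gene was called at an adjusted p of at most 0.05 and a DEG if its log2 fold change was also 1 or more in either direction. The added 1 shrinks the fold changes of low genes. The methods of the study give 3 biological replicates per group. Floors cover counting error only.

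The gene family and the lists (adherens junction, polarity, tricellular relatives, myelin, neuron, astroglia, endothelium, epidermis, ionocyte, intestine, kidney, liver, inner ear and muscle) were chosen with earlier results of these data known. Genes were named if called, if among the 10 most abundant, if in a set of claudins with a known tissue, or if in the tjp, ocln, marveld, jam, f11r or cgn families. Up to 3 called genes of each list and direction were named too. Exceptions are marked where they appear, other than genes below the limit for testing. The genes cldnd1b, mbpa, mbpb, fabp2, fabp10a and acta1b were also named outside these rules. Alternatives were no filter, a filter of 5 FPKM, a pseudocount of 0.1, median-ratio and quantile scaling, no variance trend, protein-coding genes alone, a replicate block, voom on fragments and leaving out each library. The fit was tested on simulated data with known changes, all larger than those of cldnd1a and cldn23a. That test therefore cannot show how well changes of their size are found. No gene sequences are shown.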

Additional observations from a re-analysis of the deposited data

How the results depend on the processing

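The count of claudin and tight junction genes called higher was 1 and became 0 with a pseudocount of 0.1, with no filter and with no variance trend, and ranged from 0 to 1 when each library was left out. The count called lower was 1, became 0 with no filter, and became 2 with a filter of 5 FPKM and with either voom fit (tjp3 added) and with quantile normalization or protein-coding genes alone (cldnj added). It ranged from 0 to 5 when each library was left out, and the 5 without control replicate 3 were cldn1, cldn15la, cldnd1a, tjp2b and tjp3. In that fit the gene called higher was marveld1 rather than cldn23a. The same fit called 1383 genes higher and 1369 lower over the 23409 tested genes. DEGs higher were 0 throughout, and DEGs lower went from 0 to 1 (cldnd1a) with a pseudocount of 0.1 and with voom on fragments, and ranged from 0 to 2 with a library left out. The voom fit with summed library sizes was chosen after seeing the data. No fold change of these genes that was called changed sign. Over all tested genes 1356 were higher and 914 lower, against 899 and 431 with no filter, 867 and 807 with a filter of 5 FPKM, and between 506 and 1383 higher and 161 and 1369 lower with a library left out. DEGs over all genes were 610 higher and 286 lower, against 917 and 445 with a pseudocount of 0.1, 506 and 173 with no filter, 350 and 190 with a filter of 5 FPKM, 445 and 187 for protein-coding genes, 1101 and 526 with voom and 1265 and 397 with voom on summed library sizes. The cause of these changes was not tested.

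The labels and the methods of the study do not say whether same-numbered control and Lurasidone samples were matched. Same-numbered libraries correlated at 0.118, -0.103 and 0.0056 in their deviations from the group means, and not every library correlated best with its own number. The deviations of 3 libraries from their own mean sum to 0, so these correlations cannot decide whether numbers share a batch. With the replicate block the family had 0 genes higher and 0 lower, and all genes had 869 higher and 497 lower.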

Other observations

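Beyond the genes with a tight junction symbol, 20 genes in the table match a claudin protein but carry another symbol or none, a list made after the values were seen. Of these, 13 were tested, 0 rose and 1 fell, with a median log2 fold change of -0.22. That is 7.69% of the 13, beside 9.7% of all tested genes. The gene that fell, zgc_112437, lies at chr21:25773530-25774605 within the chromosome 21 cluster, between cldnb and cldnd, and matches the zebrafish claudin-like protein ZF-A89. It was at 16.8, 21.9 and 12.5 FPKM in the controls and at 9.18, 8.80 and 10.17 FPKM in the treated libraries (log2 fold change -0.77, SE 0.20, limma adjusted p = 0.043). All treated libraries lay below all controls, and the call was lost when any library other than control replicate 3 was left out (largest adjusted p 0.135).

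cldn7a was listed at 0 in all 6 libraries, while a gene model without a symbol on an alternate contig that matches Claudin-7-A was at 7.86, 6.74 and 6.58 FPKM in the controls and 4.77, 5.98 and 6.54 FPKM in the treated libraries (adjusted p = 0.34). Whether fragments were divided between such models was not tested.

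Markers of further cell types in the larva gave these counts. Of 5 astroglial genes, with a median log2 fold change of -0.48, glula rose from 127 ± 5.29 to 207 ± 5.79 FPKM (log2 fold change 0.70, limma adjusted p = 0.024) and fabp7a fell from 315 ± 80.8 to 141 ± 22.95 FPKM (-1.14, adjusted p = 0.015). Of 4 muscle genes, with 2 log2 fold changes above and 2 below 0, the fast myosin myhz2 rose from 137 ± 16.9 to 599 ± 43.7 FPKM (2.13, adjusted p = 0.00054), while the actin acta1b was at 484 ± 109 and 331 ± 21.1 FPKM and was not called (-0.52, adjusted p = 0.15). Of 5 liver genes, with 3 log2 fold changes above and 2 below 0 and a median of 0.04, cp fell from 54.2 ± 5.92 to 27.9 ± 10.97 FPKM (-1.01, adjusted p = 0.0497), and fabp10a was at 114 ± 25.4 and 191 ± 42.3 FPKM without a call (0.74, adjusted p = 0.070). With limma, none of the 9 neuronal genes was called. An unadjusted p of at most 0.05 was reached by 2, both lower, or 22.2% beside 28.2% of all tested genes. The calls for glula, fabp7a and cp were each lost in at least 3 of the fits that left out a library. The called genes came to 40% of the astroglial, 25% of the muscle and 20% of the liver list, beside 9.7% of all tested genes. For an unadjusted p of at most 0.05 the shares were 80%, 75% and 40%, beside 28.2% of all tested genes.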
